A study of Homo sapiens with 6 samples.

Results

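The insulin-like growth factor (IGF) axis was described in mitotic ERRAS cells through 10 genes taken by name from the FPKM table, and all 10 were found among its 63009 usable genes. They are the ligands IGF1 and IGF2, the receptor IGF1R, the binding protein genes IGFBP2 to IGFBP7, and PAPPA, which encodes a metalloproteinase that cuts binding proteins. FPKM counts the sequenced fragments of a gene relative to the length of its transcript and to all mapped fragments of the library, so that levels can be compared between genes. ERRAS cells are IMR90 primary human lung fibroblasts transduced with a retrovirus that encodes H-RasV12 fused to the ligand-binding domain of the estrogen receptor. Both groups carried this construct. The 3 control libraries came from uninduced cells and the 3 Ras-induced libraries from cells given tamoxifen for 4 days (100 nM in the sample labels, 100 ng/ml 4-hydroxytamoxifen in the methods). Control cells received no tamoxifen, so the effects of tamoxifen and of activated Ras cannot be told apart. All cultures grew in 20% fetal calf serum, itself a source of IGFs, at 3% oxygen. They were arrested in mitosis with 1 μM Dimethylenastron (DME), an inhibitor of the kinesin Eg5, and detached cells with a mitotic index over 90% were collected for poly(A) RNA-seq.

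IGF1 and IGF2 signal through the tyrosine kinase receptor encoded by IGF1R, which recruits the IRS adaptors and activates the PI3K and AKT pathway of growth and survival. The IGF-binding proteins are secreted carriers that hold IGFs away from the receptor, prolong their life outside the cell, or deliver them on cleavage by proteases such as PAPPA. Fibroblasts secrete several of them, and members of the family, IGFBP7 among them, are known components of the secretory phenotype of senescent cells.

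Of the 10 genes, 8 reached a mean of 1 FPKM and were tested, and 4 were altered, all of them binding protein genes with lower expression in Ras-induced mitotic cells: IGFBP3, IGFBP7, IGFBP4 and IGFBP6 (limma, adjusted p at or under 0.05 over 13993 tested genes). Over all tested genes 16.7% were altered, 5.67% lower and 11.0% higher. This split of 1543 higher and 793 lower genes depended on scaling, with 1044 and 1109 after quantile normalization, 921 and 1101 after upper-quartile scaling and 1024 and 938 after TPM scaling, and the total of 2336 fell to 860 without Ras-induced library 3. IGFBP5 was lower in every Ras-induced library and IGFBP2 higher in every one, but neither passed the test, and IGF2 and IGF1R did not either. IGF1 and PAPPA had means under 1 FPKM. The median log2 fold change of the 8 tested genes was -0.81, against 0.10 over all tested genes, which moved to 0.01 after quantile normalization and to 0.0047 after upper-quartile scaling.

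The libraries differed little in depth, between 0.849 and 1.17 of the first control library, as judged from the steps between low FPKM values. Read counts were not used here. HRAS, to which reads of the transgene can map, stood at 1164 ± 20.3 FPKM in the controls against 1586 ± 226.5 FPKM after induction (SD, n = 3; limma, adjusted p = 0.0431). Of 12 targets of activated ERK, 8 were higher and 1, FOSL1, was lower, though SPRY4 kept its call in 3 and DUSP5 in 7 of 15 alternative fits. All 10 fibroblast markers passed 1 FPKM, and 3 of them, COL1A2, THY1 and LUM, were lower. Their summed level lay between 4854 and 5443 FPKM in control and between 3224 and 4445 FPKM in Ras-induced libraries. Of 10 mitotic markers 6 were lower, of which KIF20A kept its call in all 15 alternatives and the other five in 4 (PLK1) to 9 (CCNB2). The 10 markers summed to 1986 to 2100 FPKM in control and 1575 to 1730 FPKM in Ras-induced libraries. Among 6 endothelial markers PECAM1 was listed at 0 throughout and TEK was the only one above a mean of 1 FPKM. TEK was lower (log2 fold change -1.45, limma adjusted p = 0.00126), and the 6 markers had sums of 14.7 to 16.6 FPKM in control and 4.85 to 5.41 FPKM in Ras-induced libraries. Among 6 leukocyte markers CD3E and ITGAM were listed at 0 throughout and CD68 was the only one above a mean of 1 FPKM, with sums of 25.3 to 30.9 and 30.5 to 35.9 FPKM. The 6 epithelial markers summed to 24.6 to 38.5 and 23.6 to 27.8 FPKM. The 6 smooth muscle and pericyte markers summed to 255.7 to 281 and 171 to 208 FPKM, where CNN1 was the one altered gene. The part of these shifts in the results on the IGF axis was not tested, and in bulk RNA a smaller share of cells and less RNA per cell cannot be told apart. Ras-induced library 3 held the lowest Ras-induced value for 7 of the 8 tested IGF axis genes, and for 30.8% of all tested genes.

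**Figure D1:**
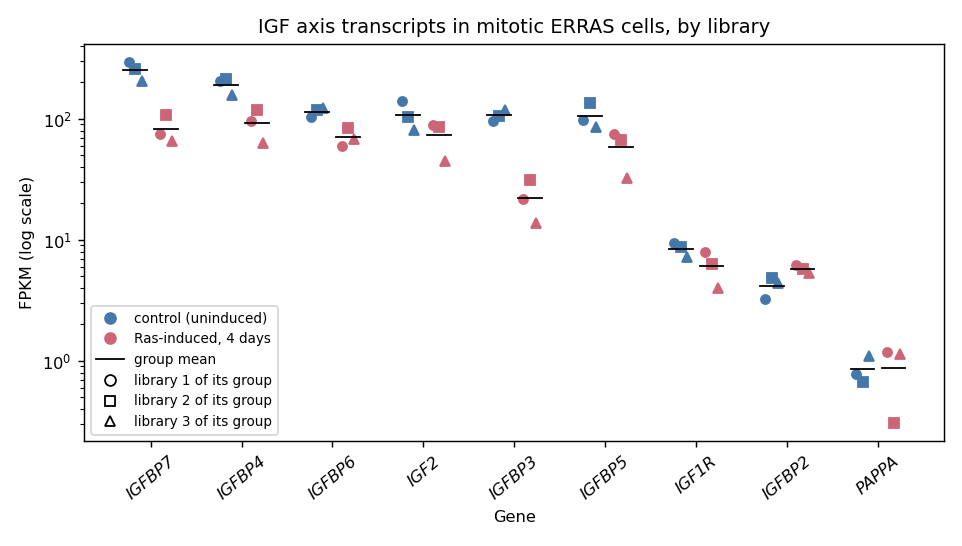
FPKM of 9 IGF axis genes on a log scale, in order of the control mean. Each point is a library (blue control, red Ras-induced, shape by library number within its group) and black bars are group means. The red points of IGFBP7, IGFBP4, IGFBP6, IGFBP3 and IGFBP5 all lie under the blue ones, those of IGFBP2 lie above, and IGF2, IGF1R and PAPPA overlap. IGF1, at or near 0, is not drawn.

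Among the binding proteins, IGFBP3 showed the largest change. It encodes the main IGF carrier of serum and lies on chromosome 7 of GRCh37 from 45951844 to 45961473 (ENSG00000146674). The control libraries measured 95.6, 104.9 and 118.9 FPKM and the Ras-induced libraries 21.5, 31.3 and 13.8 FPKM. Every control value was far above every Ras-induced one, and the group means were 106 ± 11.7 and 22.2 ± 8.78 FPKM (SD, n = 3), a 4.79-fold fall. Its log2 fold change on the log2(FPKM + 1) scale was -2.28 (standard error, SE, 0.27, 95% interval -2.92 to -1.63, limma adjusted p = 0.0045). Only 0.515% of all tested genes had a lower log2 fold change. IGFBP3 kept its call in all 15 alternative fits, with an adjusted p of at most 0.0348.

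IGFBP7 was the most abundant of the 10 transcripts in control cells. Its product binds IGFs weakly compared with the other family members and also binds insulin. The gene lies on chromosome 4 from 57896939 to 57976551 (ENSG00000163453). Control libraries measured 294, 259.5 and 207 FPKM, and Ras-induced libraries 75.3, 107 and 65.3 FPKM. The groups were well apart, with means of 253 ± 44.2 and 82.6 ± 21.8 FPKM (SD, n = 3), a 3.07-fold fall. The log2 fold change was -1.62 (SE 0.21, 95% interval -2.12 to -1.12, limma adjusted p = 0.00585). As for IGFBP3, the call held in all 15 alternatives, with an adjusted p of at most 0.0408.

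A transcript that overlaps IGFBP7 on the opposite strand, IGFBP7-AS1 (ENSG00000245067, listed as RP11-12A1.1), was also lower. It measured 11.6, 8.003 and 7.21 FPKM in control and 3.35, 2.81 and 2.02 FPKM in Ras-induced libraries, with no overlap between the groups. Its log2 fold change was -1.40 (SE 0.21, limma adjusted p = 0.00911). Counting by strand is not stated in the sources used here, so reads from the shared stretch of both genes cannot be told apart. POLR2B, a neighbour that also overlaps IGFBP7 in the annotation, measured 47.2 ± 2.89 and 47.3 ± 4.40 FPKM (SD, n = 3) and did not pass the test (log2 fold change 0.00, 95% interval -0.23 to 0.23).

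IGFBP4 encodes a binding protein that mainly restrains IGF action and is the classic substrate of PAPPA. It lies on chromosome 17 from 38599702 to 38613977 (ENSG00000141753). Control libraries measured 206, 213 and 156 FPKM and Ras-induced libraries 95.6, 118 and 63.6 FPKM. Every Ras-induced value was under every control value, and the means of 191.5 ± 30.9 and 92.4 ± 27.4 FPKM (SD, n = 3) differed 2.07-fold. The log2 fold change was -1.08 (SE 0.24, 95% interval -1.64 to -0.51, limma adjusted p = 0.028). The call was lost when control library 1 (adjusted p = 0.102), control library 2 (0.11), Ras-induced library 1 (0.0866) or Ras-induced library 3 (0.061) was left out, and without a filter on low values (0.0797).

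IGFBP6, whose product prefers IGF2 to IGF1, had the smallest of the 4 falls. It lies on chromosome 12 from 53491220 to 53496129 (ENSG00000167779). The control libraries measured 103.8, 117 and 123 FPKM and the Ras-induced libraries 59.7, 83.3 and 67.6 FPKM. The groups did not overlap, with means of 115 ± 9.78 and 70.2 ± 12.0 FPKM (SD, n = 3) and a 1.63-fold fall. The log2 fold change was -0.71 (SE 0.14, 95% interval -1.03 to -0.39, limma adjusted p = 0.0181). The call was lost without control library 2 (adjusted p = 0.0777), control library 3 (0.0573), Ras-induced library 1 (0.0592) or Ras-induced library 3 (0.0756). Unlike the other altered genes, its lowest Ras-induced value came from library 1 and not from library 3.

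The 250 bases before the annotated start of 3 of the 4 altered genes are shown, since these genes fell together and RefSeq gives each of them a single start (GRCh38.p14, a later build than that of the files). IGFBP7 and IGF2 were not among the 8 members matched. Capitals mark the letters TATAAA or TATATA on either strand, forms of the TATA box. Positions are chr7:45921273-45921522 on the minus strand for IGFBP3, chr17:40443200-40443449 on the plus strand for IGFBP4 and chr12:53097417-53097666 on the plus strand for IGFBP6.
IGFBP3: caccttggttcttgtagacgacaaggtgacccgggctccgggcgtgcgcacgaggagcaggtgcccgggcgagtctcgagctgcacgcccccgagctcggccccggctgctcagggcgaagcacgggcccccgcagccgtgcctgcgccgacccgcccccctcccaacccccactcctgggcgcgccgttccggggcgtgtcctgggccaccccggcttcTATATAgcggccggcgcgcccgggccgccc
IGFBP4: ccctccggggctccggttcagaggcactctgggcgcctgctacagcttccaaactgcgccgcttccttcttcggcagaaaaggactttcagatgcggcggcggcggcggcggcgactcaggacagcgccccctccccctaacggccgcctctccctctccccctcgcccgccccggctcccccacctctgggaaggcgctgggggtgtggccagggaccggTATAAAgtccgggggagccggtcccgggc
IGFBP6: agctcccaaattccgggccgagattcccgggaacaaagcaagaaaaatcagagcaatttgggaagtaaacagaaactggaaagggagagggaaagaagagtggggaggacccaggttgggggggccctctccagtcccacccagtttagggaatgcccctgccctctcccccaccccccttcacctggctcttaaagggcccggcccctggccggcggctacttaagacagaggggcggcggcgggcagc
The capitals began 30 bases before the start in IGFBP3 and 29 bases before it in IGFBP4, and none were found in IGFBP6. PAPPA, which is not among the 4 altered genes, also had TATAAA, 28 bases before its start. The remaining matched members had neither form. TATAAA was present in 10.7% and TATATA in 3.73% of 35116 RefSeq promoter windows of this length, and the motifs can overlap each other. GGGCGG, the GC box bound by SP1, was present in 6 of the 11 windows of the members and in 42.6% of all windows. The 6 windows belong to 5 of the 8 matched members, among them IGFBP3, IGFBP4 and IGFBP6. TGTTTAC, the core letters bound by FOXO factors, was found in 3 of the 11 windows (IGFBP6, IGF1 and PAPPA) and in 2.98% of all windows. TGACTCA, the AP-1 site, and CCGGAAG, an ETS site, were in 0 of the 11 windows of the members and in 4.203% and 8.52% of all windows, which says only that these letters are absent from the windows. Each motif was searched on both strands. The GC content was 76.0% for IGFBP3, 71.6% for IGFBP4 and 61.2% for IGFBP6, against a median of 58.0% over all windows (quartiles 46.4% and 68.0%). The windows of the other matched members ranged from 39.6% (IGF1) to 81.2% (IGF1R), with 61.2% for IGFBP5.

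IGFBP5 and IGFBP2 are neighbours on chromosome 2, IGFBP2 on the plus strand from 217497551 to 217529159 (ENSG00000115457) and IGFBP5 on the minus strand from 217536828 to 217560272 (ENSG00000115461), with 7668 bases between them. Their values lay on opposite sides of 0, and neither passed the test. IGFBP5, which binds extracellular matrix and bone mineral as well as IGFs, measured 97.9, 134 and 85.3 FPKM in control and 75.4, 67.2 and 32.5 FPKM in Ras-induced libraries. All Ras-induced values were lower, but control library 3 and Ras-induced library 1 lay close together. The log2 fold change was -0.91 (SE 0.33, 95% interval -1.70 to -0.12) and missed the threshold (limma adjusted p = 0.108). Without Ras-induced library 3 it was -0.54. IGFBP2, a carrier with a preference for IGF2, was the one member with a positive value. It measured 3.22, 4.86 and 4.39 FPKM in control and 6.16, 5.75 and 5.35 FPKM in Ras-induced libraries. The Ras-induced values were all above the controls, by a log2 fold change of 0.40 (SE 0.15, 95% interval 0.04 to 0.76), without passing the test (limma adjusted p = 0.119). Its value was positive in each of its 14 alternatives, between 0.26 and 0.50. Among the 8 tested members the groups did not overlap for 5 lower genes and 1 higher gene. Over all tested genes 39.9% did not overlap, 12.8% in the lower and 27.1% in the higher direction.

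**Figure D2:**
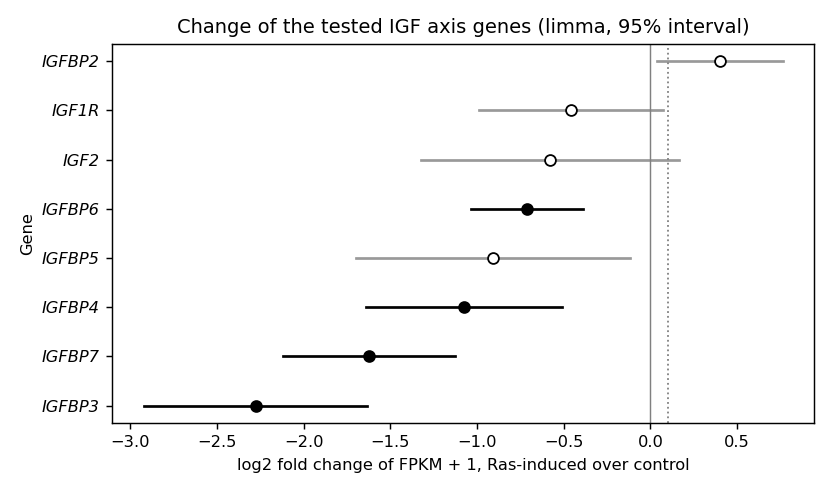
Log2 fold change of FPKM + 1 (Ras-induced over control) of the 8 tested genes with its 95% interval from limma. Filled points passed the test, the solid line marks no change and the dotted line the median of all tested genes (0.10). The intervals of IGFBP3, IGFBP7, IGFBP4, IGFBP6 and IGFBP5 lie under 0 and that of IGFBP2 above it, while those of IGF2 and IGF1R include 0. IGFBP5 and IGFBP2 are open points, since their adjusted p missed the threshold.

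Since FPKM is scaled for length, the levels of the binding protein genes can be added. Their summed level was 801, 834 and 694 FPKM in the control and 334, 413 and 248 FPKM in the Ras-induced libraries. The highest Ras-induced sum was thus well under the lowest control sum, and the means of 776 ± 73.2 and 331 ± 82.3 FPKM (SD, n = 3) differed 2.34-fold. The makeup of the sum differed as well. IGFBP3 made up 13.9% ± 2.83 (SD, n = 3) of it in control and 6.54% ± 1.01 (SD, n = 3) in Ras-induced cells, and IGFBP7 32.5% ± 3.71 and 24.9% ± 2.06 (SD, n = 3). IGFBP6 took a larger share after induction, 21.8% ± 4.86 against 14.9% ± 2.47 (SD, n = 3), although its own level fell. IGFBP2 stayed a minor part, at 0.539% ± 0.121 in control and 1.80% ± 0.383 (SD, n = 3) in Ras-induced cells. The shares of these 4 genes did not overlap between the groups, whereas those of IGFBP4 (24.6% ± 1.81 and 27.6% ± 1.73, SD, n = 3) and IGFBP5 (13.5% ± 2.23 and 17.3% ± 4.83, SD, n = 3) did. For IGFBP6 the gap was narrow, from 17.7% in control library 3 to 17.9% in Ras-induced library 1. Shares of a common sum depend on each other, and they have no counterpart over all tested genes. IGFBP3 exceeded IGFBP2 by 21.6 to 29.7 times in control libraries and by 2.59 to 5.45 times in Ras-induced libraries. These sums, shares and ratios were formed from the members and carry no test.

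**Figure D3:**
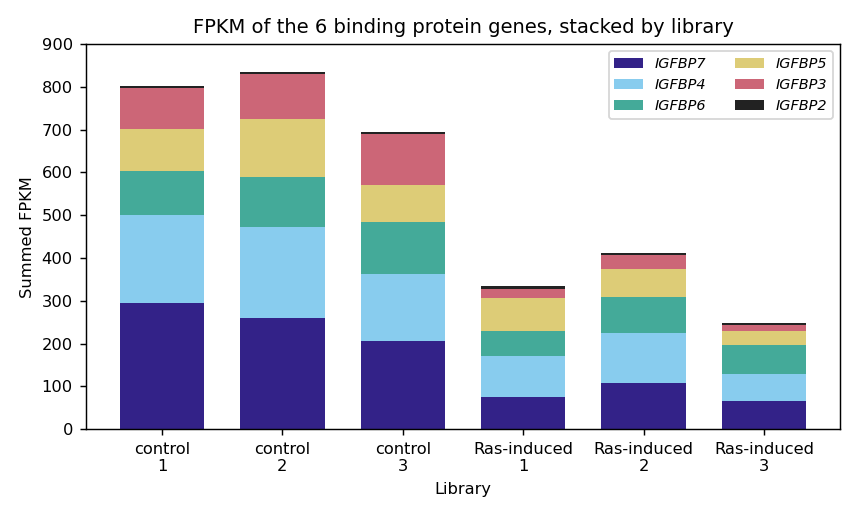
FPKM of the 6 binding protein genes stacked for each library, on a linear axis from 0. The 3 control stacks reach 694 to 834 FPKM and the 3 Ras-induced stacks 248 to 413 FPKM, and the segments of IGFBP7 and IGFBP4 lose the most FPKM.

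IGF2 was the ligand expressed by these cells. It encodes a fetal growth factor and lies on chromosome 11 from 2150342 to 2179621 (ENSG00000167244). The control libraries measured 141, 102.7 and 80.2 FPKM and the Ras-induced libraries 88.8, 86.3 and 44.8 FPKM. The ranges overlapped, since control library 3 was lower than Ras-induced libraries 1 and 2, and the log2 fold change of -0.58 (SE 0.31, 95% interval -1.32 to 0.17) did not pass the test (limma adjusted p = 0.244). Without Ras-induced library 3 it was -0.26. Other annotated genes share the IGF2 stretch. AC132217.4 (ENSG00000240801), on the same strand, measured 62.4 ± 23.1 and 54.5 ± 20.0 FPKM (SD, n = 3), IGF2-AS on the opposite strand reached at most 1.40 FPKM, and the read-through gene INS-IGF2 was listed at practically 0. The way Cufflinks split fragments between IGF2 and AC132217.4 is therefore an uncertainty of both values. IGF2 came to 17.6, 12.3 and 11.6 FPKM per 100 FPKM of summed binding proteins in control and to 26.6, 20.9 and 18.0 in Ras-induced libraries. This ratio did not overlap between the groups, a description of 2 quantities from the same libraries.

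IGF1 (chromosome 12, 102789652 to 102875522, ENSG00000017427) was listed at 0 in 4 of the 6 libraries, all 3 Ras-induced ones among them, and at no more than 0.00725 FPKM elsewhere. IGF1R, the receptor of both ligands, lies on chromosome 15 from 99191768 to 99507759 (ENSG00000140443). It measured 9.39, 8.68 and 7.26 FPKM in control and 7.88, 6.26 and 3.97 FPKM in Ras-induced libraries. Ras-induced library 1 lay inside the control range, and the log2 fold change of -0.46 (SE 0.22, 95% interval -0.99 to 0.07) did not pass the test (limma adjusted p = 0.202). Without Ras-induced library 3 it was -0.23.

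PAPPA (chromosome 9, 118916070 to 119164600, ENSG00000182752) was barely expressed. It measured 0.774, 0.667 and 1.10 FPKM in control and 1.19, 0.304 and 1.14 FPKM in Ras-induced libraries, which overlapped fully. The difference of the means was 0.031 FPKM (two-sided exact permutation test, p = 0.8, where 0.1 is the smallest p that 3 libraries against 3 allow). With the filter lowered to 0.1 FPKM its log2 fold change was -0.01 (95% interval -0.56 to 0.54, limma adjusted p = 0.988).

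Ordered by mean FPKM, control cells expressed IGFBP7 and IGFBP4 most, then IGFBP6, IGF2, IGFBP3 and IGFBP5, and far lower IGF1R, IGFBP2 and PAPPA. Neighbours from IGFBP6 to IGFBP5 in this order overlapped over the libraries, as did IGFBP7 and IGFBP4, whereas IGFBP4 was above IGFBP6 in every control library. In Ras-induced cells IGFBP4, with 92.4 FPKM, came before IGFBP7, with 82.6 FPKM, and IGF2, IGFBP6 and IGFBP5 followed, all of them overlapping their neighbours. IGFBP3, at the level of IGFBP5 in control cells, was set apart from IGFBP5 by a gap between 32.5 and 31.3 FPKM. IGF1R and IGFBP2 overlapped in Ras-induced cells, at 6.04 and 5.75 FPKM, but not in control cells, at 8.45 and 4.16 FPKM.

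Further genes of the IGF system were followed through a list of 24, of which 14 were tested and 4 were altered, 3 higher and 1 lower, with a median log2 fold change of 0.13. The altered share was 28.6%, against 16.7% over all tested genes, whose median was 0.10. The altered gene with the largest rise was STC1, a stanniocalcin whose product inhibits the PAPPA protease. It measured 136, 117 and 172 FPKM in control and 673, 688 and 823 FPKM in Ras-induced libraries, a 5.14-fold difference of the means. Its log2 fold change was 2.37 (SE 0.15, limma adjusted p = 0.00126). The related inhibitor STC2 measured 44.8 ± 19.6 and 38.2 ± 12.2 FPKM (SD, n = 3) and did not pass the test (limma adjusted p = 0.724). ADAM12, a membrane protease that cuts IGFBP3 and IGFBP5, fell from 6.48, 7.34 and 8.14 FPKM to 1.09, 1.70 and 1.29 FPKM, with a log2 fold change of -1.82 (SE 0.15, limma adjusted p = 0.00212). STC1 kept its call in all 15 alternatives and ADAM12 in each of the 14 that tested it.

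The other altered genes of this list encode RNA-binding proteins that bind IGF2 mRNA. IGF2BP2 rose from 36.4 ± 3.84 to 59.2 ± 14.1 FPKM (SD, n = 3; log2 fold change 0.66, limma adjusted p = 0.048), and IGF2BP3 rose from 45.4 ± 5.77 to 67.8 ± 8.40 FPKM (SD, n = 3; log2 fold change 0.57, limma adjusted p = 0.0331). Neither call held after scaling. The adjusted p was 0.0705 and 0.0521 after quantile normalization, 0.0784 and 0.0547 after upper-quartile scaling, and 0.0551 and 0.0642 after TPM scaling. IGF2BP2 passed in 4 of 15 alternatives and IGF2BP3 in 6 of 15. IGF2BP2 lost its call without control library 1 (adjusted p = 0.14), 2 (0.099) or 3 (0.127) or without Ras-induced library 1 (0.129) or 2 (0.0855). IGF2BP3 lost it without control library 1 (adjusted p = 0.0667), 2 (0.0912) or 3 (0.0674) or without Ras-induced library 1 (0.107) or 3 (0.116). IGF2BP1 measured 36.8 ± 4.67 and 39.7 ± 3.41 FPKM (SD, n = 3), with no call.

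The scavenger receptor IGF2R, which takes IGF2 to lysosomes, measured 31.6 ± 2.82 and 36.4 ± 2.87 FPKM (SD, n = 3; log2 fold change 0.20, limma adjusted p = 0.209). INSR, the insulin receptor, was under 1 FPKM in every library and was not tested, with values of 0.925, 0.412 and 0.661 FPKM in control and 0.398, 0.335 and 0.315 FPKM in Ras-induced libraries. The adaptor IRS1 measured 20.3 ± 2.43 and 18.3 ± 3.65 FPKM (SD, n = 3), and IRS2 1.43 ± 0.232 and 1.28 ± 0.169 FPKM (SD, n = 3). Neither passed the test (log2 fold changes of -0.15 and -0.09, limma adjusted p = 0.548 and 0.748). IGFBP1, the binding protein gene outside the 10, stayed at or under 0.231 FPKM. SHC1 was listed at 0 in control library 2 and at 109 to 148 FPKM in the other libraries, so its fold change is not given.

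Proteins that share the amino-terminal IGFBP domain without being classic IGF carriers formed a list of 13 genes. Of the 9 tested, 4 were altered (44.4%), 3 lower and 1 higher, with a median log2 fold change of -0.38. Over all tested genes 16.7% were altered, 5.67% lower and 11.0% higher, and the median was 0.10. CYR61, a matricellular protein, fell from 193.6 ± 19.5 to 74.2 ± 6.27 FPKM (SD, n = 3) and CRIM1, a membrane protein that binds BMPs, from 174 ± 26.2 to 74.6 ± 3.26 FPKM (SD, n = 3). Their log2 fold changes were -1.37 and -1.20 (limma adjusted p = 0.00186 and 0.00292), and both calls held in all 15 alternatives. WISP1, a relative of CYR61, fell from 10.8, 6.38 and 17.4 FPKM to 4.06, 1.78 and 1.33 FPKM (log2 fold change -1.87, limma adjusted p = 0.027). ESM1, a secreted proteoglycan, rose from 9.96, 8.45 and 25.3 FPKM to 47.6, 41.4 and 80.1 FPKM (log2 fold change 1.98, limma adjusted p = 0.0259). WISP1 lost its call without control library 1 (adjusted p = 0.0955), control library 3 (0.0721), Ras-induced library 2 (0.0908) or Ras-induced library 3 (0.104). ESM1 lost it without any one library (0.0621 to 0.0987) other than control library 3. Both lost it without a filter on low values (0.0795 and 0.0773).

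Downstream of the receptor, 21 of 23 listed genes of the PI3K, AKT, mTOR and FOXO pathway were tested. Of these 2 were altered, or 9.52%, against 16.7% over all tested genes. Both encode catalytic subunits of PI3K. PIK3CB rose from 12.5, 11.0 and 12.6 FPKM to 18.9, 17.4 and 18.3 FPKM (log2 fold change 0.56, SE 0.09, limma adjusted p = 0.0108). PIK3CD fell from 12.5, 13.2 and 16.1 FPKM to 7.25, 8.08 and 8.70 FPKM (log2 fold change -0.72, SE 0.12, limma adjusted p = 0.0131). PIK3CB lost its call without Ras-induced library 3 (adjusted p = 0.0543), and PIK3CD without control library 2 (0.0587) or Ras-induced library 1 (0.0585). The median over the list was -0.01, against 0.10 over all tested genes.

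**Figure D4:**
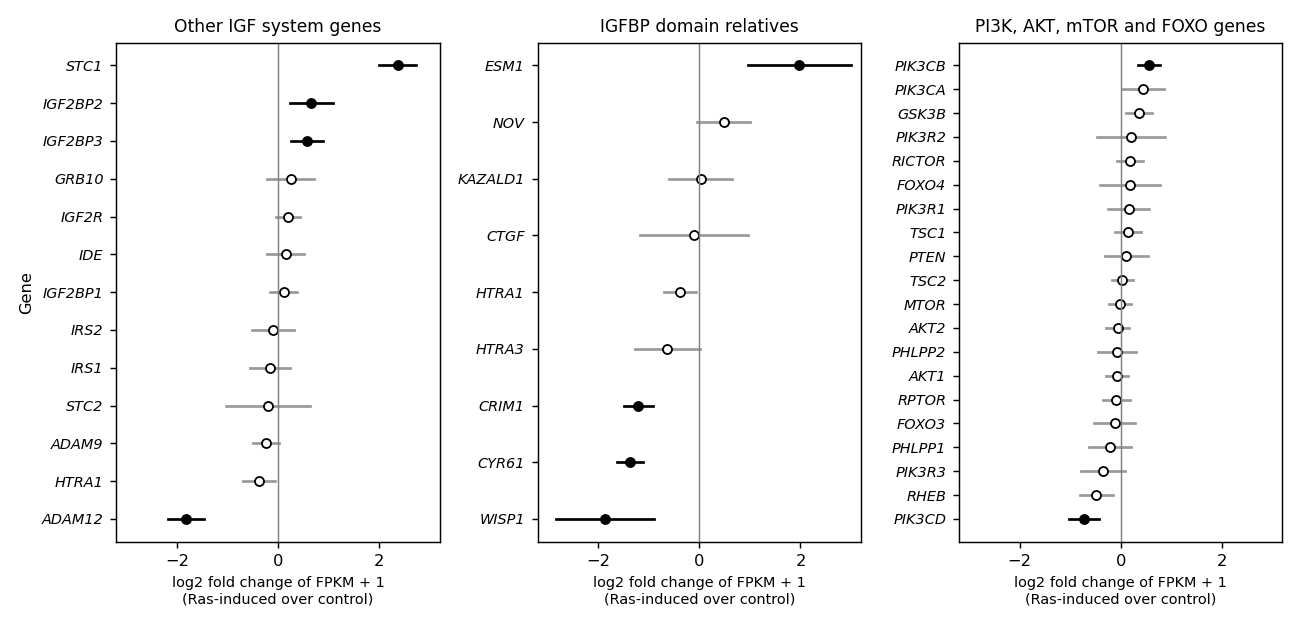
Log2 fold change of FPKM + 1 (Ras-induced over control) with its 95% interval from limma for the tested genes of 3 lists, with filled points for those that passed the test. STC1 (2.37) and ESM1 (1.98) lie farthest to the right, and WISP1 (-1.87) and ADAM12 (-1.82) farthest to the left. HTRA1 is in the first and second lists, SHC1, listed at 0 in 1 library, is not drawn, and neither is 1 gene of the third list.

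The genes most like the 3 members with the largest changes were found by Pearson correlation of log2(FPKM + 1) over the 6 libraries. For IGFBP3 they were DNAH5, EFEMP2 and PHTF2 (r = 0.998, 0.997 and 0.996), for IGFBP7 MAGI2-AS3, TK1 and HNRNPR (r = 0.998, 0.997 and 0.997), and for IGFBP4 SLC4A4, CTC-205M6.5 and MTSS1L (r = 0.998, 0.997 and 0.996). All 9 had lower means in Ras-induced cells, as TK1, the thymidine kinase of proliferating cells, with 159 and 66.6 FPKM. At a lower cut, r of 0.95 or more, there were 242, 309 and 170 such genes among the 13992 compared. The 6 points share 2 groups and the same libraries, and the part of this in the high r was not tested.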

How the data were processed

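Poly(A) RNA of 6 cultures was sequenced on a NextSeq500. Per the labels and the study's methods, the authors used Trim Galore 0.3.0, mapped the reads with TopHat2 (genome hg19, splice junctions from Ensembl), and obtained FPKM from Cufflinks. The deposited table holds FPKM per gene and library. Its columns give the group and a number, not the sample, so each column served as a replicate of its group. A further 18 unnamed columns, which hold the extra values of 120 of the 63129 listed genes, were not used, and those genes and 1 repeated header line were left out. A second deposited file, the authors' cuffdiff comparison with group FPKM, log2 fold change, test statistic, p-values and q-values, was not used.

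Tests were run on log2(FPKM + 1) for genes whose mean reached 1 FPKM, on a scale that understates the change of low genes, with limma 3.58.1 in R 4.3.3 (mean-variance trend, two-sided) and Benjamini-Hochberg adjustment over 13993 genes. No count test was run, as FPKM is not a count. The fit was tested on simulated data. The p-values measure the spread between libraries of 3 repeats. The exact permutation test of PAPPA ran over the libraries. Tables and figures were made with matplotlib 3.10.9, scipy 1.17.1, pandas 2.3.3 and numpy 2.4.6 in Python 3.11.15.

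Coordinates are from GENCODE v44 lifted to GRCh37 (the build of hg19) and promoters from RefSeq. The members and lists were chosen with earlier results of these data known, and the motifs, the overlapping genes, IGF2BP1 and SHC1 after the values were seen. The values of 1 gene of the PI3K list are not reported here, though its counts and median include it. Named were all 10 members, up to 6 altered genes of each related list with the largest change, IGFBP1, IGF2R, INSR, IRS1, IRS2, STC1 and STC2, and the 3 genes most correlated with each of 3 members. Alternatives tried were a pseudocount of 0.1, other filters on low values (0.1 FPKM, 5 FPKM, none), quantile, upper-quartile and TPM scaling, no trend, the replicate number as a block, each library left out, and a call that also needs an absolute log2 fold change of 1.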

Additional observations from a re-analysis of the deposited data

How the results depend on the processing

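Over 119 alternative fits of the 8 tested members none changed direction, 108 left the call as it was, 9 lost it (IGFBP4 and IGFBP6) and 2 gained it. IGFBP2 could not be fitted with a filter of 5 FPKM, which it does not reach. Leaving out each library gave 2 to 4 altered members (IGFBP3 and IGFBP7 in each), 2 to 3 other IGF system genes, 2 to 3 IGFBP domain relatives, 1 to 3 PI3K, AKT and FOXO genes, and 860 to 1872 altered genes in all, against 2336. The members altered were 2 without control library 2, Ras-induced library 1 or Ras-induced library 3, and the altered genes in all fell to 978 and 876 without control libraries 1 and 2, and to 1042, 1443 and 860 without Ras-induced libraries 1, 2 and 3. Without a filter on low values 1518 genes were altered in all, 2 other IGF system genes and 2 domain relatives. Quantile normalization and TPM scaling each gave 2 other IGF system genes. Where a call also needed a log2 fold change of 1 or more in size, 548 genes, 3 members, 2 other IGF system genes and 0 PI3K, AKT and FOXO genes were altered. The cause of these shifts was not tested. Some settings also differed in the number of libraries, in the number of genes tested or in the strictness of the call.

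Libraries with the same number deviated from their group means with correlations between -0.003 and 0.048 across genes, so the numbers were not taken to pair the libraries. With the replicate block 2310 genes and 6 members were altered, where IGF2 (limma adjusted p = 0.0462) and IGFBP5 (0.0443) joined the 4, all lower. Control and Ras-induced libraries with number 2 and with number 3 each correlated best with each other, but those with number 1 did not. Read counts and alignment totals were not used here, so no counting interval is given for genes near 0 FPKM such as IGF1 and PAPPA.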
